A study of Mus musculus with 96 samples.

Results

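The Egr and Nr4a transcription factors are 7 genes, Egr1, Egr2, Egr3, Egr4, Nr4a1, Nr4a2 and Nr4a3, taken by gene name from a table of read counts over 48795 genes. Each name matched 1 row, and all 7 were expressed highly enough to be tested in both tissues. The counts came from total RNA of the striatum and the cerebral cortex of 48 mice aged 6 months on a C57BL/6 background, 96 libraries in all. Each of 6 genotypes had 4 females and 4 males. They were wild type (WT) and the heterozygous Q140 knock-in (Q140), each also on a background with 1 copy of Pms1 lost (Pms1 het and Q140 Pms1 het) or both copies lost (Pms1 null and Q140 Pms1 null). Both tissues were taken from each animal. Q140 is an Htt allele with an expanded CAG repeat and serves as a model of Huntington's disease, and Pms1 encodes a mismatch repair protein. The comparisons ask how the knock-in changes these genes and whether loss of Pms1 alters that change.

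Egr and Nr4a genes are immediate early genes: synaptic activity switches them on within minutes, without new protein synthesis, through calcium, cAMP and ERK signalling to the factors CREB and SRF on their promoters. Egr proteins bind GC-rich sites through zinc fingers, and Egr1, Egr2 and Egr3 are held back by the co-repressors Nab1 and Nab2. Nr4a proteins are orphan nuclear receptors that bind DNA alone, and Nr4a1 and Nr4a2 also bind it with retinoid X receptors. In striatum the genes respond to dopamine and glutamate inputs to medium spiny neurons, the projection neurons that Huntington's disease affects first.

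The promoters of Egr2, Nr4a1, Nr4a3 and Nr4a2 are shown because the first 3 genes were called lower in knock-in striatum and the last was not. Each sequence runs from 250 bases before to 50 bases after an annotated start, from RefSeq on GRCm38.p6, and windows were at hand for 5 of the 7 genes. Capitals mark CRE cores (TGACG, or CGTCA on the other strand), the central part of the CREB site, a CArG box, the SRF site, in Egr2, and an EGR site (GCGGGGGCG, read on the other strand) in Nr4a1. The Egr2 window is 1 of 5 annotated starts and was chosen after its motifs were seen. Of the others, the window from 67535249 held none of these motifs, and that from 67537316 held 0 CRE cores and 1 CArG box. The windows from 67537620 and 67537680 overlap the one shown and held the same sites.
Egr2, chr10:67537619-67537918, plus strand: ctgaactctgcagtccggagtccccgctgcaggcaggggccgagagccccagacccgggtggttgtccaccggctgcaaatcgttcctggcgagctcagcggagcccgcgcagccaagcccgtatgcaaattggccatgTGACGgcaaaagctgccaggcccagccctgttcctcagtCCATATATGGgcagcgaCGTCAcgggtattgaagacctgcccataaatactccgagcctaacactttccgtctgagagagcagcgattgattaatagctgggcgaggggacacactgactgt
Nr4a1, chr15:101266596-101266895, plus strand: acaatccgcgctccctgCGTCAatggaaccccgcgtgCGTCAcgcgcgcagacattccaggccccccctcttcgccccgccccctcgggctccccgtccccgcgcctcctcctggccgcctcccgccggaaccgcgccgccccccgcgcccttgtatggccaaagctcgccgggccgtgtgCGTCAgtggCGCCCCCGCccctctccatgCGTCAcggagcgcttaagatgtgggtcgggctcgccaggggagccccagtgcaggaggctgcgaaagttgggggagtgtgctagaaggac
Nr4a3, chr4:48045055-48045354, plus strand: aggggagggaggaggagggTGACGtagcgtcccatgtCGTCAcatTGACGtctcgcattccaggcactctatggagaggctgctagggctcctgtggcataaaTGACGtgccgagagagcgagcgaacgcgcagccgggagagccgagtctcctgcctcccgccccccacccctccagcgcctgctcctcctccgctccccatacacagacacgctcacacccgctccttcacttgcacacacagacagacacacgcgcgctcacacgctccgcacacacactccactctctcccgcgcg
Nr4a2, chr2:57123954-57124253, minus strand: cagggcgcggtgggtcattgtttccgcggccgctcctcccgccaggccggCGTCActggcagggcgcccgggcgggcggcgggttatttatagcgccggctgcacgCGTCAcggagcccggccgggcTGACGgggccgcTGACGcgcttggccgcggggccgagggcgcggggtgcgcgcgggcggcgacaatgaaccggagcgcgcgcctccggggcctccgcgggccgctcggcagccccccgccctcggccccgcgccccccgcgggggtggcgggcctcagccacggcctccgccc
The Nr4a windows held 4 CRE cores each, the Egr2 window shown held 2, and the Egr4 window (chr6:85513540-85513839, minus strand) held 2, at -177 and -109 from the start. Over 32544 windows of 300 bases in the same table, 20.9% held at least 1 such core on either strand and 5.04% held 2 or more. The CArG box at -72 in Egr2 had matches in 1.64% of windows, and the EGR site at -60 in Nr4a1 in 3.5% (GCGTGGGCG or GCGGGGGCG, both strands). None of the windows of these 5 genes held the full CRE (TGACGTCA, 1.8% of windows, which overlaps the core on each strand) or the Nr4a response element AAAGGTCA (1.52%). These matches describe the letters only, and Nr4a2, which was not called in striatum, had as many cores as Nr4a1 and Nr4a3.

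Library totals lay between 27993751 and 56364535 counts. Every library carried the markers of its labelled tissue, with medium spiny neuron genes higher in all 48 striatal libraries than in any cortical one, and no replicates agreed within sampling noise. Pms1 RNA was present in every genotype: in striatum Pms1 had 5.44 ± 0.34 CPM (read count scaled to library size; mean ± SD, n = 8) in WT and 4.03 ± 0.45 in Pms1 null, and in cortex 3.78 ± 0.40 and 3.53 ± 0.39, so its RNA is a weak check of the genotype labels. The labels do not say whether animals were littermates. Animals carry a code of 2 numbers whose meaning is not given, and codes whose first number is 16 or above (late codes) were carried by all 8 animals of both groups without Pms1, by 2 animals of WT, 3 of Q140 and 1 of Q140 Pms1 het, and by 0 of Pms1 het. Between a group without Pms1 and one with it, genotype and code can therefore hardly be told apart.

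Per length of transcript, the 7 genes spanned a wide range in WT striatum. In the authors' FPKM, Egr1 had the highest mean (125 FPKM, range 98.5 to 151), followed by Egr3 (91.2, range 77.4 to 98.6), Nr4a1 (84.4, range 66.4 to 113) and Egr4 (45.3, range 33.6 to 55.0). Egr2 (10.7 FPKM, range 7.502 to 14.5) and Nr4a3 (9.01, range 6.64 to 11.4) were lower, and Nr4a2 was near the bottom of what was measured (0.203, range 0.109 to 0.334). Neighbours in this order overlapped over the 8 libraries except Nr4a1 with Egr4, Egr4 with Egr2, and Nr4a3 with Nr4a2. In WT cortex the levels were Egr1 153 FPKM, Nr4a1 95.9, Egr3 91.2, Egr4 28.0, Nr4a3 8.56, Egr2 8.36 and Nr4a2 4.81, so Nr4a2 was the gene whose level per length differed most between the tissues.

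**Figure D1:**
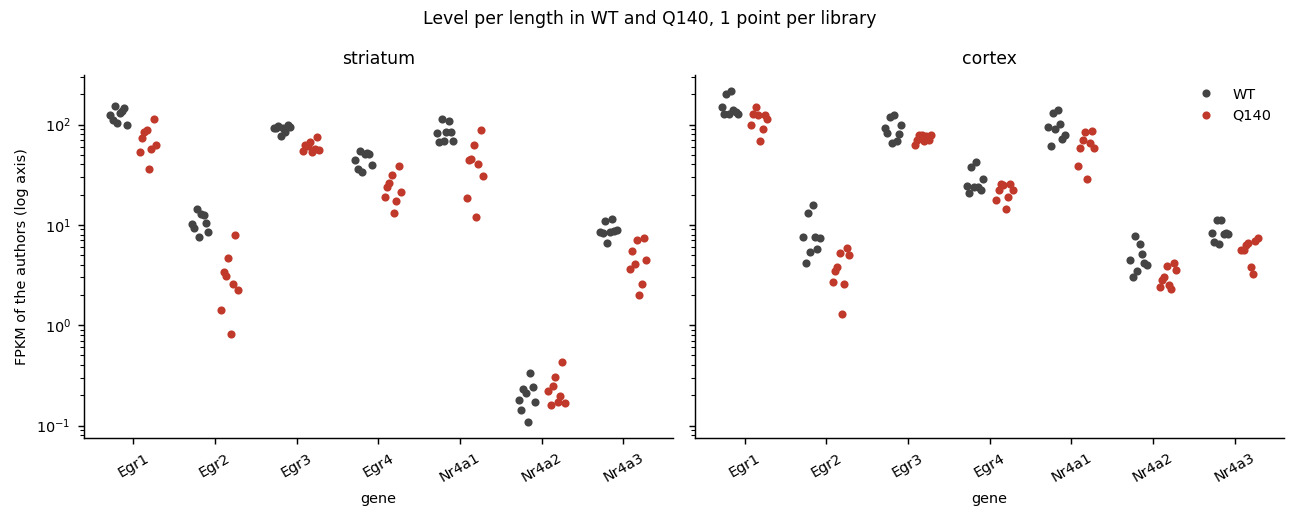
FPKM of each gene (log axis) in the 8 WT (grey) and 8 Q140 (red) libraries of striatum (left) and cortex (right), 1 point per library. Egr1 is the highest in every cortical and every WT striatal library, Egr3 is above it in the Q140 striatal libraries 7-1 (52.8 against 36.2 FPKM) and 15-1 (54.9 against 53.6), and Nr4a2 lies below 0.5 FPKM in every striatal library shown and between 2 and 8 FPKM in cortex.

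In knock-in striatum all 4 Egr genes fell. Egr1, also called Zif268 and long used as a marker of neuronal activity (ENSMUSG00000038418, GRCm38, chromosome 18, 34859823 to 34864984, plus strand), had 449 to 691.5 CPM in WT (median 591) and 156 to 490 CPM in Q140 (median 298). Of the 8 Q140 libraries, 7 lay below the lowest WT library. Its log2 fold change was -0.88 ± 0.17 (standard error, as for all log2 fold changes here), with an adjusted p of 0.000111 in edgeR's quasi-likelihood test over 18890 genes. Egr2, known as Krox20 and as the regulator of peripheral myelin (ENSMUSG00000037868, chromosome 10, 67535475 to 67542188, plus strand), had the most negative log2 fold change of the 7. It had 25.6 to 50.2 CPM in WT (median 36.0) and 2.69 to 25.8 CPM in Q140 (median 9.32), a log2 fold change of -1.84 ± 0.28 (adjusted p = 2.11e-06). The Q140 and WT libraries overlapped in 1 animal only, the Q140 male 8-2, which had 25.8 CPM against 15.6 in the next Q140 library. Egr3, a slower and longer-lasting member (ENSMUSG00000033730, chromosome 14, 70077203 to 70082614, plus strand), had 110 to 143 CPM in WT (median 136) and 72.0 to 103.7 CPM in Q140 (median 81.9), with a log2 fold change of -0.66 ± 0.07 (adjusted p = 1.76e-09). Its 2 groups did not overlap, and its spread among libraries was the smallest of the 7, a coefficient of variation of 12.0% in Q140 against 67.6% for Egr2. How many of all genes had groups without overlap was not counted, here or in the comparisons below. Egr4 (ENSMUSG00000071341, chromosome 6, 85511121 to 85513589, minus strand) went from 72.4 to 120 CPM in WT (median 104) to 26.9 to 79.6 CPM in Q140 (median 47.3), with 7 of 8 Q140 libraries below all WT libraries and a log2 fold change of -1.005 ± 0.18 (adjusted p = 2.82e-05).

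Of the Nr4a genes, which encode the receptors Nur77 (Nr4a1), Nurr1 (Nr4a2) and Nor1 (Nr4a3), 2 fell with the Egr genes. Nr4a1 (ENSMUSG00000023034, chromosome 15, 101254269 to 101274795, plus strand) had 170.6 to 284 CPM in WT (median 212) and 28.8 to 212 CPM in Q140 (median 101). The log2 fold change was -1.07 ± 0.29 (adjusted p = 0.0037), with 7 of 8 Q140 libraries below the lowest WT library. Nr4a3 (ENSMUSG00000028341, chromosome 4, 48045153 to 48086447, plus strand) had 39.9 to 68.7 CPM in WT (median 53.6) and 11.6 to 43.1 CPM in Q140 (median 25.2), a log2 fold change of -1.04 ± 0.31 (adjusted p = 0.01). Here 6 of 8 Q140 libraries were below all WT libraries. Nr4a2, known for its role in midbrain dopamine neurons (ENSMUSG00000026826, chromosome 2, 57106830 to 57124003, minus strand), had 0.462 to 1.36 CPM in WT (median 0.805) and 0.622 to 1.70 in Q140 (median 0.820). Its log2 fold change of 0.13 had a 95% interval from -0.54 to 0.81 (adjusted p = 0.806), so changes of either sign within it were not excluded at the 19 to 63 counts of the WT and 25 to 63 counts of the Q140 libraries. No annotated gene overlaps any of the 7.

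Of the 7 genes, 6 thus fell in Q140 striatum, where 15.4% of all genes tested were called lower (2910 of 18890) and the middle value over all genes was 0.01 on the log2 scale, against -1.005 for the 7. Without scaling factors beyond the library total the same count of 6 was called lower, while the lower share of all called genes went from 49.2% to 20.2%. In bulk tissue, fewer cells of a type and less RNA per cell cannot be told apart. The sum of 12 medium spiny neuron markers lay between 13780 and 15490 CPM in WT and between 9681 and 10850 CPM in Q140 striatum, and 10 of the 12 were called lower. Its part in the result was not tested. Of 7 microglial markers 5 were called lower (sum 389 to 424 CPM in WT, 339 to 394 in Q140), and of 8 endothelial and mural markers 5 (274 to 298 CPM in WT, 238 to 280 in Q140). Of 7 astrocyte markers 2 were called lower (3906 to 4255 CPM in WT, 3583 to 3915 in Q140), and of 9 interneuron markers 3 (912 to 978 CPM in WT, 895 to 977.5 in Q140). Without scaling factors these counts were 2 of 7, 2 of 8, 1 of 7 and 0 of 9, and that of the medium spiny neuron markers was again 10 of 12. These tests take animals as independent, although sharing a first code number went with a correlation of 0.133 between striatal and 0.131 between cortical libraries. Among animals with early codes alone (15 or less; 6 WT, 5 Q140), 6 of the 7 genes were again lower, with log2 fold changes of -0.96 for Egr1, -1.85 for Egr2, -0.69 for Egr3, -1.05 for Egr4, -1.09 for Nr4a1 and -1.17 for Nr4a3. The 3 Q140 animals left out there are male and the 2 WT animals left out are female, so the sexes are unequal between these groups.

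**Figure D2:**
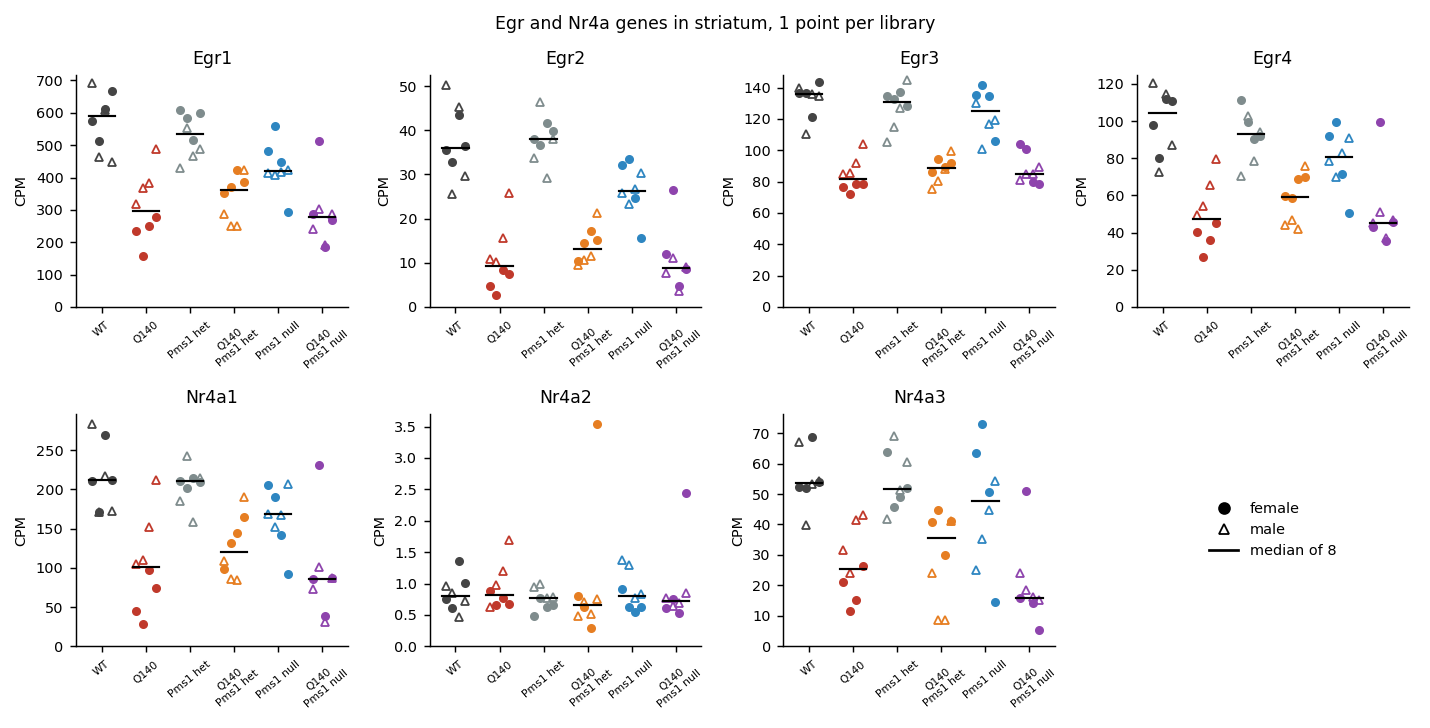
CPM of each gene in striatum by genotype, 1 point per library (filled circles females, open triangles males), with the median of 8 as a line. In all 3 knock-in groups the medians of Egr1, Egr2, Egr3, Egr4, Nr4a1 and Nr4a3 lie below those of the matching Pms1 genotype, and Nr4a2 is at most 1.70 CPM apart from single libraries at 3.54 and 2.45 CPM.

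The knock-in also lowered Egr and Nr4a genes in animals with 1 or no copy of Pms1. In Q140 Pms1 het against Pms1 het, 5 of the 7 genes fell (12.1% of all genes were called lower). The log2 fold changes were -0.63 ± 0.17 for Egr1 (adjusted p = 0.00572), -1.46 ± 0.28 for Egr2 (0.000112), -0.54 ± 0.07 for Egr3 (3.1e-07), -0.66 ± 0.18 for Egr4 (0.00582) and -0.86 ± 0.32 for Nr4a3 (0.0417). The libraries did not overlap for Egr1 (249 to 424 CPM in Q140 Pms1 het, 429 to 608.5 in Pms1 het), Egr2 (9.54 to 21.2 CPM, 29.1 to 46.3) and Egr3 (75.4 to 99.7 CPM, 105 to 145). The share of all genes without overlap was not counted, so these separations are given as a description. Nr4a1 had 84.2 to 190 CPM in Q140 Pms1 het and 159 to 242 in Pms1 het, a log2 fold change of -0.70 ± 0.29 (adjusted p = 0.0691), and Nr4a2 0.33 ± 0.35 (0.55). The call of Nr4a3 was lost on leaving out any of 9 single animals (5-3, 6-1, 6-2, 10-2 and 11-1 of Pms1 het, and 8-1, 9-3, 12-1 and 20-2 of Q140 Pms1 het), with adjusted p-values from 0.0509 to 0.0999. It was also lost without the filter on low counts (-0.86, adjusted p = 0.0734), among early codes alone (-0.70, 0.0661) and in females alone (-0.42, 0.656). Nr4a1 passed there in a non-robust fit (0.047), with a block on the first code number in limma (0.0382) and without the animal 8-3 (0.0447). In females alone Egr1 and Egr4 missed the threshold too (0.131 and 0.155).

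In Q140 Pms1 null against Pms1 null, again 5 of 7 fell, with 5.47% of all genes called lower. Egr1 had 186 to 512.5 CPM in Q140 Pms1 null (median 278) and 294 to 559 in Pms1 null (median 420), a log2 fold change of -0.60 ± 0.17 (adjusted p = 0.0202). Egr2 had 3.64 to 26.4 CPM (median 8.73) and 15.6 to 33.4 (median 26.2), a change of -1.34 ± 0.29 (0.00155). Of the 8 Q140 Pms1 null libraries, 6 lay below all Pms1 null libraries for Egr1 and 7 for Egr2. The female 27-3 had the highest Egr1, Egr2, Egr4, Nr4a1 and Nr4a3 of the Q140 Pms1 null group. The log2 fold changes were -0.48 ± 0.07 for Egr3 (1.22e-05), -0.65 ± 0.18 for Egr4 (0.0153) and -1.15 ± 0.33 for Nr4a3 (0.0165), while Nr4a1 missed the threshold at -0.84 ± 0.29 (0.0525) and Nr4a2 had 0.02 ± 0.34 (0.983). Without animal 27-3, Nr4a1 passed at -1.21 (adjusted p = 0.00189) and 6 of 7 were called. It also passed without the Pms1 null animal 43-3 (-0.93, 0.0343) and in 5 of 11 other alternatives, with DESeq2 (0.0364), a non-robust fit (0.0331), no sex term (0.0499), limma with a block on the first code number (0.0197) and limma on FPKM (0.0132). With 1 sex alone, Egr1, Egr2, Egr4 and Nr4a3 missed the threshold in females and Egr1 and Nr4a3 in males. Without the Pms1 null animal 22-2 or the Q140 Pms1 null animal 28-4, Egr1 missed the threshold (adjusted p = 0.0554 and 0.0505).

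The difference between these knock-in effects was tested directly. For Q140 Pms1 null, the effect minus that in animals with both copies of Pms1 was called in 0 of the 7 genes (5.05% of all genes), with log2 differences of 0.28 (95% interval -0.22 to 0.78) for Egr1, 0.50 (-0.32 to 1.32) for Egr2, 0.17 (-0.04 to 0.38) for Egr3, 0.35 (-0.17 to 0.87) for Egr4, 0.23 (-0.59 to 1.05) for Nr4a1, -0.11 (-1.08 to 0.86) for Nr4a2 and -0.11 (-1.03 to 0.80) for Nr4a3. Values within these intervals were not excluded. For the Pms1 het background 0 of 7 were called as well, as were 0% of all genes. At an unadjusted p below 0.05, none of the 7 passed in either contrast.

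Between the knock-in groups themselves none of the 7 genes passed the test. Against Q140, Q140 Pms1 null had log2 fold changes of -0.13 for Egr1 (95% interval -0.48 to 0.22), 0.00 for Egr2 (-0.62 to 0.62), 0.07 for Egr3 (-0.08 to 0.22), 0.03 for Egr4 (-0.35 to 0.40), -0.14 for Nr4a1 (-0.73 to 0.44), -0.07 for Nr4a2 (-0.76 to 0.61) and -0.41 for Nr4a3 (-1.08 to 0.26). Thus 0 of 7 were called, against 7.1% of all genes in either direction, and 0 had an unadjusted p below 0.05. Without the animal 27-3 the values were -0.30 for Egr1, -0.37 for Egr2, 0.04 for Egr3, -0.19 for Egr4, -0.50 for Nr4a1, -0.04 for Nr4a2 and -0.76 for Nr4a3, again with 0 called. In the same comparison the sum of the medium spiny neuron markers was 11110 to 12930 CPM in Q140 Pms1 null, above all 8 Q140 libraries, and 8 of the 12 markers were called higher (5.07% of all genes). The upper bounds of the intervals for Egr1 and Egr3 were both 0.22, beside knock-in changes of -0.88 and -0.66 in the same fit. The sexes had opposite signs for all 7 genes: females alone (4 a group) gave 0.45 for Egr1 and 0.25 for Egr3, both above that bound, and males alone -0.61 and -0.10. For the other 5 genes females gave 0.24 (Nr4a3) to 1.17 (Egr2) and males -0.99 (Egr2) to -0.47 (Egr4). In each sex 0 of 7 were called, and the difference between the sexes was not tested in this comparison. All 8 Q140 Pms1 null animals carry late codes, as do 3 of the 4 Q140 males and 0 of the 4 Q140 females. Sex and code thus cannot be told apart here. The female values include the animal 27-3, with Egr1 at 512.5 CPM against 302 in the next Q140 Pms1 null library. This comparison and that of Q140 with WT share the Q140 libraries, as the comparisons with WT share the WT libraries. Q140 Pms1 het against Q140 had 0 of 7 genes called (0% of all genes).

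Loss of Pms1 alone gave no call. Pms1 null against WT had 0 of 7 called, where 7.91% of all genes were called in either direction. Egr1 had 294 to 559 CPM in Pms1 null (median 420) and a log2 fold change of -0.41 ± 0.17 (adjusted p = 0.137). It was the 1 gene of the 7 lower at an unadjusted p below 0.05, as were 11.5% of all genes, and the log2 fold changes of the others lay between -0.50 (Egr2) and 0.04 (Nr4a2). Pms1 het against WT had 0 of 7 called (0% of all genes), with log2 fold changes between -0.16 and 0.02.

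**Figure D3:**
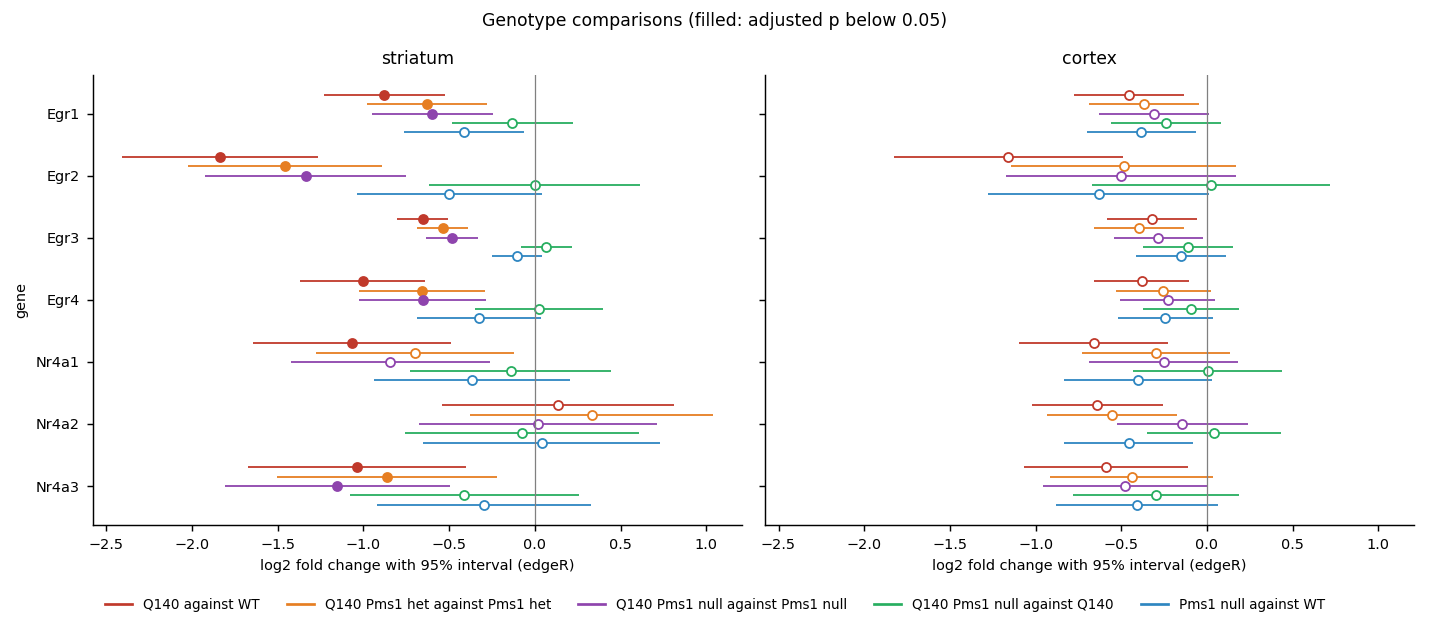
Log2 fold changes from edgeR with 95% intervals for 5 genotype comparisons (colours) of the 7 genes in striatum (left) and cortex (right), filled where the adjusted p is below 0.05. Filled points occur only in the 3 knock-in comparisons of striatum, and the intervals of Q140 Pms1 null against Q140 (green) cover 0 for every gene in both tissues.

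The striatal decrease was measured in each sex (4 animals a group). In females, 6 of the 7 genes fell (11.5% of all genes called lower), with log2 fold changes of -1.36 ± 0.21 for Egr1, -2.67 ± 0.37 for Egr2, -0.82 ± 0.10 for Egr3, -1.43 ± 0.24 for Egr4, -1.81 ± 0.37 for Nr4a1 and -1.598 ± 0.43 for Nr4a3. In males 3 fell (9.02% of all genes), with -1.28 ± 0.34 for Egr2, -0.51 ± 0.10 for Egr3 and -0.67 ± 0.23 for Egr4. The median of the 7 in males was -0.55, and 4 were lower at an unadjusted p below 0.05 (2590 of 18890 genes). Nr4a1 had 105 to 212 CPM in Q140 males and 171 to 284 in WT males (medians 130.5 and 195). Nr4a3 had 23.9 to 43.1 and 39.9 to 66.9 CPM (medians 36.5 and 53.9), so missing the threshold did not exclude a decrease. Egr1 had 156 to 277 CPM in Q140 females and 318 to 490 in Q140 males, which did not overlap, against 513 to 668 in WT females and 449 to 691.5 in WT males, which did. The male minus female difference of the knock-in effect was positive for all 7 genes, from 0.31 ± 0.14 for Egr3 to 1.39 ± 0.51 for Egr2. By adjusted p, 0 of 7 differed (0% of all genes). At an unadjusted p below 0.05, 5 of 7 (Egr1, Egr2, Egr3, Egr4 and Nr4a1) were higher in males, against 3.46% of all genes. Of the 4 Q140 males 3 carry late codes and of the 4 Q140 females 0, and of the WT animals the 2 with late codes are female, so sex and code cannot be told apart here. In cortex the intervals of the same difference covered 0 for each of the 7 genes.

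In cortex no gene of the 7 passed the adjusted threshold, and all 7 had negative log2 fold changes. Egr1 had 573 to 970.5 CPM in WT (median 610) and 308 to 665 in Q140 (median 530.5), a log2 fold change of -0.45 ± 0.16 (adjusted p = 0.432). Egr2 had 14.5 to 53.9 CPM in WT (median 25.2) and 4.42 to 20.1 in Q140 (median 12.5), a change of -1.16 ± 0.33 (0.278). For Egr1 7 of 8 and for Egr2 5 of 8 Q140 libraries lay below the lowest WT library. The log2 fold changes of the others were -0.32 ± 0.13 for Egr3, -0.38 ± 0.14 for Egr4, -0.66 ± 0.22 for Nr4a1, -0.64 ± 0.19 for Nr4a2 and -0.59 ± 0.24 for Nr4a3, and groups overlapped in all 7. By adjusted p 0 of the 7 were called, as 0.016% of all genes were called lower. At an unadjusted p below 0.05 all 7 were lower, against 3.85% of all genes. Nr4a2 had 12.5 to 31.6 CPM in WT and 9.48 to 17.1 in Q140 cortex. The sum of 9 cortical glutamatergic markers was 1877 to 2183 CPM in WT and 1973 to 2164 in Q140 cortex. The cortical library of the Q140 female 7-3, the lowest of its group for Nr4a2 and Nr4a3, had a sum of choroid plexus and ependyma markers of 714 CPM, against at most 9.48 in WT, and the part of this in the result was not tested. Leaving out each animal in turn gave log2 fold changes from -0.71 to -0.52 for Nr4a2 and from -0.66 to -0.505 for Nr4a3.

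**Figure D4:**
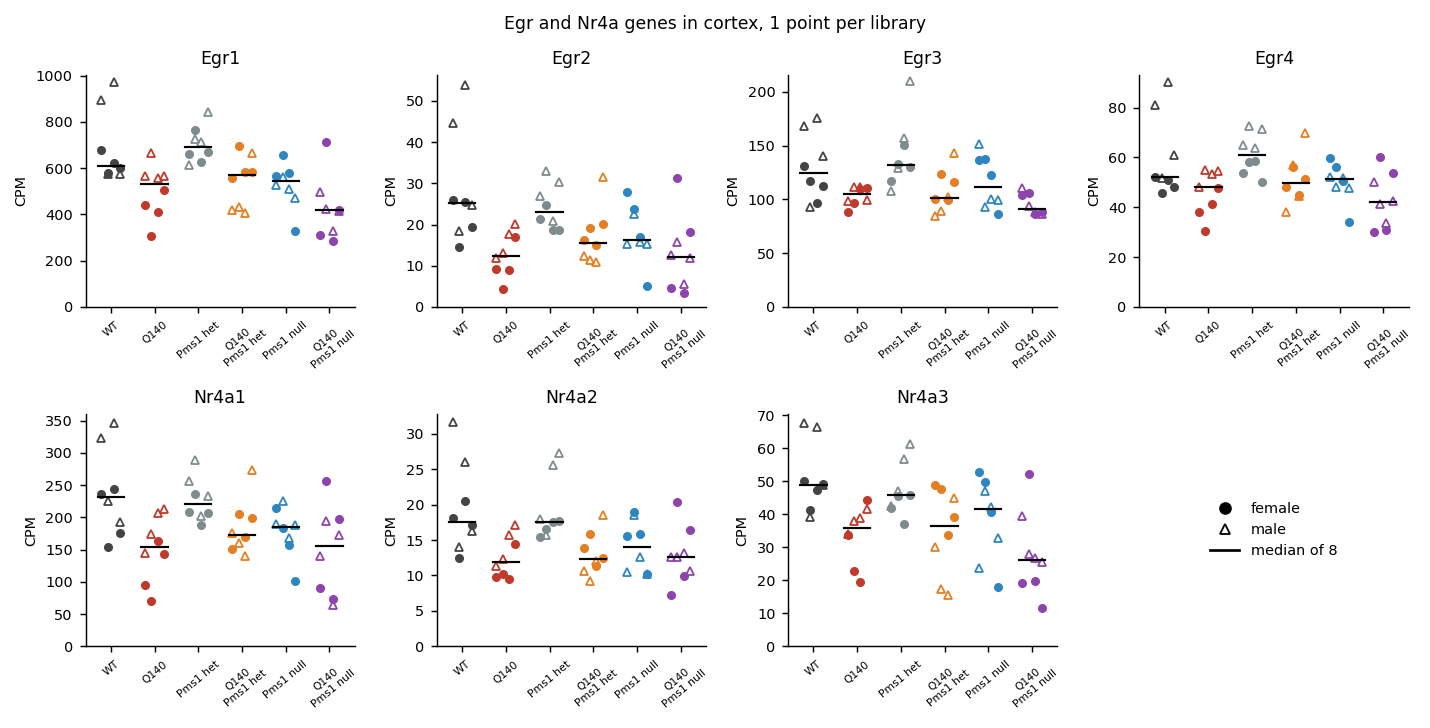
CPM of each gene in cortex by genotype, drawn as for striatum (1 point per library, circles females, triangles males, line the median of 8). The Q140 medians lie below the WT medians in all 7 genes, and the groups overlap in every panel.

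On the other backgrounds the cortical values were smaller or no larger for 6 of the 7 genes. In Q140 Pms1 het against Pms1 het, 0 of 7 were called (0.0428% of all genes called lower), and Egr1, Egr3 and Nr4a2, 3 of 7, were lower at an unadjusted p below 0.05 (8.01% of all genes). Egr3 was the exception, at -0.40 ± 0.13 against -0.32 ± 0.13 in Q140 against WT. In Q140 Pms1 null against Pms1 null, 0 of 7 were called (0.0267% of all genes called lower) and Egr3 alone was lower at an unadjusted p below 0.05 (3.75% of all genes). Pms1 null against WT had 0 of 7 called, against 9.58% of all genes in either direction, and Egr1 and Nr4a2 were lower at an unadjusted p below 0.05 (11.5% of all genes). Q140 Pms1 null against Q140 had 0 of 7 called (0.0107% of all genes). The sum of choroid plexus and ependyma markers reached 573 CPM in Pms1 null cortex (median 5.73) and 572 in Q140 Pms1 null cortex (median 5.67). In Q140 Pms1 het cortex it reached 22 CPM (median 6.69), and its part in these results was not tested.

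The tissues were compared in 1 fit over all 96 libraries. Without pairing, WT striatum differed from WT cortex in 2 of the 7 genes (74.5% of all genes called in either direction): Egr4 was higher in striatum by 0.83 ± 0.17 (adjusted p = 1.69e-05) and Nr4a2 fell by 4.46 ± 0.31 from cortex to striatum (5.03e-26). With the animal as a block, since both tissues came from the same animals, 4 of 7 differed (76.6% of all genes), adding Egr1 at -0.21 ± 0.08 (adjusted p = 0.0138) and Egr2 at 0.55 ± 0.17 (0.00304). The knock-in effect in striatum minus that in cortex was called in 0 of the 7 without the block (8.32% of all genes called lower), where Egr3 and Egr4 were lower at an unadjusted p below 0.05 (13.4% of all genes). With the animal as a block, 6 of the 7 were called (11% of all genes called lower): Egr1 at -0.50 ± 0.10 (adjusted p = 0.000272), Egr2 at -0.83 ± 0.24 (0.00885), Egr3 at -0.38 ± 0.10 (0.00324), Egr4 at -0.69 ± 0.13 (7.4e-05), Nr4a1 at -0.57 ± 0.15 (0.00502) and Nr4a3 at -0.53 ± 0.16 (0.0152). Nr4a2 differed by 0.75 ± 0.35 (0.141) the other way. Pairing by animal thus showed a larger decrease in striatum than in cortex for these 6 genes at the scaling used. The fit with the block was not repeated without scaling factors. With neither block nor scaling factors, these 6 differences lay between -0.60 (Egr2) and -0.26 (Egr3), and none was called. In the fits without the block, leaving out scaling factors took the genes called lower from 1640 to 857 and those called higher from 977 to 3380.

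The levels of these genes in the 2 tissues of an animal went together. After the mean of the animal's genotype and sex was removed from log2 CPM, the correlation of striatum with cortex over 48 animals was 0.82 for Egr1 (Spearman's rho 0.67), 0.78 for Egr2 (0.69), 0.78 for Egr3 (0.74), 0.76 for Egr4 (0.67), 0.89 for Nr4a1 (0.82) and 0.90 for Nr4a3 (0.80). Permutation of animals within genotype and sex (100000 draws, two-sided) gave p-values for r of 1e-05, the smallest they can give, for Egr3, Egr4, Nr4a1 and Nr4a3 (1.75e-05 adjusted over the 7 relations), and 3e-05 for Egr1 and Egr2 (3.5e-05 adjusted). For rho the permutation p was at most 0.00015 in these 6 genes (0.000175 adjusted). Nr4a2 had r = 0.23 and rho = 0.21 (permutation p = 0.199 and 0.219, the same when adjusted). Over 17976 genes measured in both tissues the median correlation was 0.20, and 0.20% of genes were above Nr4a3 and 1.17% above Egr4. Without the 2 animals farthest from the median, r was 0.75, 0.69, 0.73, 0.70, 0.85 and 0.84 in the order of the first 6 genes. Within early codes (26 animals) it lay between 0.78 (Egr4) and 0.89 (Nr4a1), and within late codes (22 animals) between 0.72 (Egr3) and 0.92 (Nr4a3), leaving out Nr4a2 (0.08 and 0.44).

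**Figure D5:**
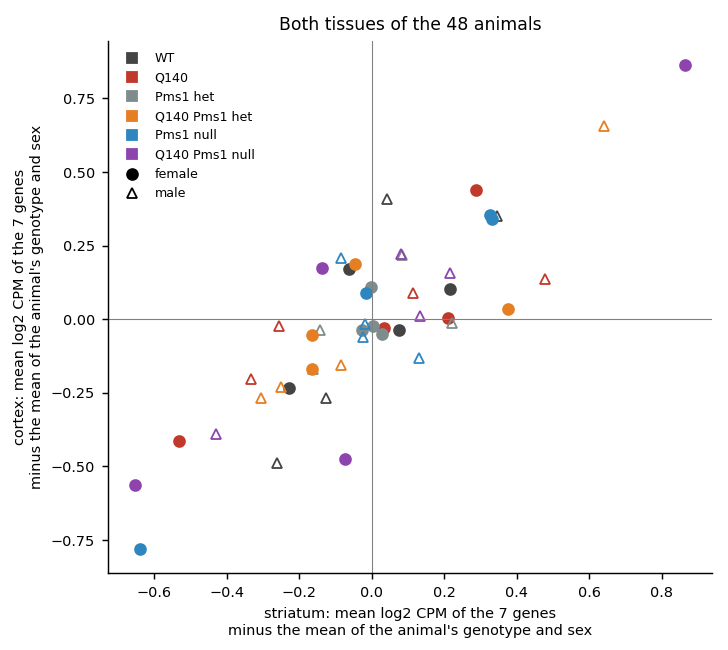
Mean log2 CPM of the 7 genes minus the mean of the animal's genotype and sex, in striatum (x axis) and cortex (y axis), 1 point per animal (48; colour genotype, shape sex). The Q140 Pms1 null female 27-3 is at the top right with 0.86 in both tissues, and the Pms1 null female 43-3 at the bottom left with -0.64 and -0.78.

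Within striatum, 6 of the genes also varied together over the 48 libraries, again after removing genotype and sex: the 15 pairs without Nr4a2 had correlations from 0.49 to 0.96 (median 0.70), and the 6 pairs with Nr4a2 from -0.09 to 0.24. In cortex the ranges were 0.33 to 0.91 (median 0.64) and 0.47 to 0.74, so Nr4a2 varied with the others in cortex. These correlations are descriptions: the libraries share scaling factors, and no p is given. The genes most like the mean of the 7 over the 48 striatal libraries, of 13401 with a mean of at least 1 CPM, were Midn (r = 0.92), Fosl2 (0.92), Dusp6 (0.90), Slc25a25 (0.87) and Junb (0.87), where the median over all genes was 0.00. In cortex they were Sik1 (0.93), Fosl2 (0.91), Dusp6 (0.90), Arc (0.87) and Fos (0.86) of 13419. Fosl2 and Junb encode AP-1 subunits, Dusp6 a phosphatase of ERK, Sik1 a kinase induced by cAMP, and Arc a synaptic protein. All 5 striatal genes fell in Q140 striatum (15.4% of all genes called lower), with log2 fold changes of -0.67 for Midn (adjusted p = 0.000458), -1.099 for Fosl2 (0.00263), -0.66 for Dusp6 (0.000668), -0.69 for Slc25a25 (8.45e-08) and -0.81 for Junb (0.000555). None of the 5 cortical genes was called in Q140 cortex (0.016% of all genes called lower). Their values there were -0.80 for Sik1 (adjusted p = 0.27), -0.52 for Fosl2 (0.419), -0.43 for Dusp6 (0.247), -0.92 for Arc (0.247) and -0.81 for Fos (0.394).

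Other genes of the activity response were taken as lists, which were chosen with earlier results of these data known. Values are log2 fold changes with adjusted p-values from the same edgeR fit. In Q140 striatum 15.4% of all genes were called lower and 15.9% higher. Of 17 other immediate early transcription factors, 8 fell and 1 rose there (median log2 fold change -0.48, all genes 0.01), the same counts as without scaling factors. Besides Fosl2 and Junb, Per1, a clock gene with CREB sites, fell by 0.73 ± 0.12 (adjusted p = 8.25e-06), and Nfil3, a repressor of clock genes, rose by 0.26 ± 0.09 (0.0213). Of 23 immediate early effector genes, 13 fell and 1 rose (median -0.42), and without scaling factors 13 fell and 2 rose. Arc fell by 1.03 ± 0.28 (0.00324), the phosphatase genes Dusp1 and Dusp14 had changes of -0.80 ± 0.17 (0.000166) and -1.196 ± 0.19 (2.68e-06), and Pcsk1, a prohormone convertase, rose by 0.38 ± 0.11 (0.00679). In cortex 0 of both lists were called (0.016% of all genes called lower), and 12 of 17 and 14 of 23 were lower at an unadjusted p below 0.05 (3.85% of all genes), with medians of -0.47 and -0.26.

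Downstream and upstream genes were measured as well, in lists chosen likewise, again beside 15.4% of all genes called lower and 15.9% higher. All 5 genes listed as partners of some Egr or Nr4a proteins fell in Q140 striatum (median -0.15). They were the co-repressor genes Nab1, at -0.15 ± 0.04 (adjusted p = 0.00474), and Nab2, at -0.25 ± 0.05 (9.52e-05), and the retinoid X receptor genes, of which Rxrg had -0.50 ± 0.10 (6.46e-05). Without scaling factors 2 of the 5 were called lower. Of 5 reported Egr targets, a list that shares Nab1 and Nab2 with the partners and Arc with the effectors, 5 fell (median -0.22; 4 without scaling factors), among them Gabra4, a GABA-A receptor subunit, at -0.22 ± 0.03 (5.79e-07). Of 24 genes of the SRF and CREB pathways, 12 fell and 1 rose (median -0.08), and without scaling factors 8 fell and 6 rose. The nuclear kinases Rps6ka4, at -0.64 ± 0.04 (9.7e-19), and Rps6ka5, at -0.39 ± 0.04 (5.13e-11), which phosphorylate CREB and histone H3, and the calcineurin subunit Ppp3ca, at -0.42 ± 0.03 (8.71e-15), were the 3 with the largest decreases, and Mef2c, a factor of activity-dependent genes, rose by 0.15 ± 0.04 (0.00626). Of 25 receptors, channels and enzymes through which striatal inputs reach these genes, 17 fell and 2 rose (median -0.25), and without scaling factors 17 fell and 3 rose. Among them the adenosine receptor Adora2a had -0.70 ± 0.06 (1.55e-13), the phosphodiesterase Pde10a -0.67 ± 0.04 (7.37e-17) and the adenylyl cyclase Adcy5 -0.59 ± 0.04 (8.18e-19), and the calcium channel Cacna1d rose by 0.13 ± 0.04 (0.00943) and the glutamate receptor Gria1 by 0.06 ± 0.02 (0.0442). Several of these are also medium spiny neuron markers.

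The lists were also counted in striatum of Q140 Pms1 null against Q140, where 5.07% of all genes were called higher and 2.03% lower. Of the 25 striatal input genes 16 rose and 0 fell (median 0.14, all genes 0.00), with Adora2a up by 0.40 ± 0.06 (adjusted p = 3.6e-06), Pde10a by 0.32 ± 0.04 (1.36e-06) and Adcy5 by 0.31 ± 0.03 (2.52e-08). Without scaling factors the same number, 16, rose. Of the 24 SRF and CREB pathway genes 10 rose (5 rose and 1 fell without scaling factors), including Rps6ka4 by 0.29 ± 0.04 (7.67e-07), Rps6ka5 by 0.14 ± 0.04 (0.0188) and Ppp3ca by 0.20 ± 0.03 (4.5e-05). Of the 17 other immediate early factors 0 rose and 1, Nfil3, fell by 0.29 ± 0.09 (0.0425), and of the 23 effectors 1 rose, Plk2, a polo-like kinase, by 0.15 ± 0.04 (0.0107; named after its value was seen), and 0 fell, with Arc at -0.05 ± 0.28 (0.951) and Fosl2 at -0.29 ± 0.30 (0.66). Of the 5 partners 1 rose and 0 fell (median 0.04), as without scaling factors. Of the 5 reported Egr targets 1 rose and 0 fell (median 0.04), and 0 rose without scaling factors. The 7 Egr and Nr4a genes had 0 calls. The difference between lists was not tested. A list of 11 glucocorticoid-responsive genes was included because handling and stress move both kinds of gene. In Q140 against WT striatum 1 of them fell and 0 rose (15.4% of all genes called lower, 15.9% higher). The gene that fell was the cell cycle inhibitor Cdkn1a, at -0.38 ± 0.13 (0.0167). The median of the list there was 0.18 (all genes 0.01), and without scaling factors 1 fell and 2 rose. In Q140 Pms1 null against Q140, 0 of the 11 were called, as without scaling factors.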

How the data were processed

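Total RNA from striatum and cortex was extracted with Qiagen RNeasy kits and made into TruSeq stranded libraries, per the labels' protocols. The authors deposited a table of raw read counts per gene and a table of FPKM values (read counts per gene scaled to transcript length and library depth). STAR 2.7.5c, SAMtools 1.10, HTSeq 0.12.3 and GRCm38/mm10 are named per the submitters' processing notes, without their roles. Strand handling in the counting and the version of the annotation, not given in the sources used here, could shift counts where genes overlap. The deposited columns without a sample numbered 0.

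Tests on the counts used edgeR 4.0.16 under R 4.3.3 (TMM scaling, filterByExpr by genotype, robust quasi-likelihood fit, genotype and sex as terms, all 6 genotypes of a tissue in 1 fit), with Benjamini-Hochberg adjustment over all genes tested and a threshold of 0.05. The study text speaks of 16 per group, while the labels give 8 animals per genotype and tissue. Pairing of tissues comes from the animal codes in the labels, and the animal block is given beside the tissue comparisons. Levels on the log2 CPM scale had a prior count of 2, and FPKM was tested with limma 3.58.1 as log2(FPKM + 0.1). Alternatives were RLE factors, no scaling, DESeq2 1.42.0, no filter, a non-robust fit, no sex term, code terms or blocks, 1 sex, early codes, and leaving out each animal. The procedure was tested on simulated data. The members and gene lists were chosen with earlier results of these data known. Named genes are the 7, up to 3 called genes per direction of each list in striatal Q140 against WT, and the 5 genes per tissue most correlated with the mean of the 7. Tests measure the spread between animals. Standard errors of the 7 genes came from the fitted model. Those of list genes and of fits with the animal as a block were the absolute log2 fold change divided by the square root of the test's F statistic.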

Additional observations from a re-analysis of the deposited data

Results flagged for a closer look

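In 84 sets of 8 libraries (7 genes, 6 genotypes, 2 tissues), 9 had a highest or lowest library whose gap to the next was past the 95% limit of Dixon's test on their whole range, where chance flags about 1 in 20. In striatum of Q140 Pms1 null, the female 27-3 stood above the other 7 animals in 5 genes: Egr1 at 512.5 CPM (next 302), Egr2 at 26.36 (next 11.93), Egr4 at 99.48 (next 50.95), Nr4a1 at 230.6 (next 101.2) and Nr4a3 at 50.89 (next 24.01). These 5 flags come from 1 library. In cortex the same animal was also the highest of its group for Egr1, at 712 CPM.

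Nr4a2 in striatum was 3.541 CPM in the Q140 Pms1 het female 9-4 (next 0.8073) and 2.447 CPM in the Q140 Pms1 null female 43-5 (next 0.8464). The summed cortical glutamatergic markers of these libraries were 75.02 and 58.01 CPM, the highest of their groups, whose medians were 38.9 and 36.17. The part of these markers in the Nr4a2 values was not tested. In cortex, Egr2 was 31.56 CPM in the Q140 Pms1 het male 8-3 (next 20.11), and Egr4 was low at 34.06 CPM in the Pms1 null female 43-3 (next 47.73).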

How the results depend on the processing

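Of the 7 genes, 6 were called lower in striatal Q140 against WT under every alternative except males alone (3). Q140 Pms1 het against Pms1 het had 2 called in females alone, and Q140 Pms1 null against Pms1 null had 1 in females and 3 in males alone, with 4 animals a group. The other alternatives gave 4 to 6 calls on Pms1 het and 5 to 6 on Pms1 null. Leaving out each animal in turn gave 6 to 6 calls in Q140 against WT and 4 to 6 in each of the other 2, and 0 to 0 in the comparisons with no call. With the replicate block (animal), calls went from 2 to 4 between WT tissues and from 0 to 6 for the difference of knock-in effects between tissues. The block was fitted with TMM scaling only. Without scaling factors, the lower share of all called striatal genes went from 49.2% to 20.2% (Q140 against WT), 48.5% to 23.1% (on Pms1 het), 49.5% to 30.1% (on Pms1 null), 49.3% to 35.6% (Pms1 null against WT), 28.6% to 71% (Q140 Pms1 null against Q140) and 33.2% to 73.2% (difference of knock-in effects), and in cortex 38.1% to 14.7% (on Pms1 het). The median over all striatal genes in Q140 against WT went from 0.01 to 0.09.

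Reversals of sign were in values that no test had called. Nr4a2 had -0.355 in females alone in Q140 against WT, -0.05759 with a block on the first code number and -0.488 in males alone on Pms1 het, and -0.007109 with FPKM, -0.1061 with that block and -0.5329 in males alone on Pms1 null. In Q140 Pms1 null against Q140, females alone gave 0.4507 (Egr1), 1.168 (Egr2), 0.852 (Nr4a1), 0.4775 (Nr4a2) and 0.2398 (Nr4a3), and males alone -0.1047 (Egr3) and -0.4714 (Egr4). There Egr2 was 0.00173 with RLE factors and 0.01954 with the code block, and Egr4 -0.06993 with a code term, -0.02165 with FPKM and -0.01142 without scaling. For the difference of knock-in effects between Pms1 null and Pms1 wild type, males alone gave -0.1942 (Egr1), -0.4793 (Egr2), -0.1759 (Egr4) and -0.7042 (Nr4a1), females alone 0.9633 (Nr4a2) and 0.4141 (Nr4a3), and the code block 0.02982 (Nr4a3). Leaving out single animals spanned -0.04129 to 0.2697 for Nr4a2 in Q140 against WT, -0.3223 to 0.4529 on Pms1 het and -0.329 to 0.1502 on Pms1 null. In Q140 Pms1 null against Q140 it spanned -0.3735 to 0.2963 for Egr2, -0.191 to 0.1514 for Egr4, -0.4959 to 0.07845 for Nr4a1 and -0.4285 to 0.09836 for Nr4a2. The cause was not tested. Depth limits Nr4a2 in striatum, with 10 to 125 counts a library in Q140 Pms1 het.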
